A study of Mus musculus with 6 samples.

Results

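The genes described here are 54 cell cycle and DNA replication genes of the mouse, chosen by name from origin licensing through the mitotic checkpoint. Probes annotated with their symbols were found for 53 of them, among 16504 named genes and 19624 features on the arrays, and Ccnb1 is not analysed here. Tyms had 3 probes and Cdk6 had 2, which were averaged, and each other gene had 1. Mature fiber cells and elongating fiber cells of the mouse lens were set against each other on 6 two-colour arrays, each with both populations, 3 with mature fibers in channel 1 (lens249, lens487, lens493) and 3 with elongating fibers in channel 1 (lens250, lens488, lens455). All animals were of the strain TgN(GFPU)5Nagy, which carries a GFP transgene, so neither population is free of it. Per the labels the lenses were fixed, cut at 5 µm and dissected by laser capture. For lens249 and lens250 they also state postnatal day 5, lenses pooled over littermates, at least 200 cells and about 40 slices. For the other 4 arrays the sources used here give neither age nor pooling, and no label says which arrays come from separate animals or RNA extracts, so p-values measure only the spread between arrays, which may be technical.

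A cell that divides first licenses its replication origins by loading the MCM helicase, then copies its DNA, condenses its chromosomes and separates them under the spindle checkpoint. Cyclin-dependent kinases drive these steps, and the pocket proteins Rb1, Rbl1 and Rbl2 hold back the E2F factors that transcribe the replication genes. In the lens, division takes place in the epithelium at the front and near the equator; cells there leave the cell cycle as they turn into fibers, elongate, and later lose their nuclei as they mature.

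Some of the members carry promoter elements that the choice by name did not use. The sequences are RefSeq's, of build GRCm38.p6, from 250 bases before to 50 bases after each start, and 43 of the 54 genes matched, with 48 promoters. An E2F element was searched as TTTCCCGC, TTTCGCGC, TTTGCCGC or TTTGGCGC on both strands. It was in 15 of the 48 promoters, or 31.3%, against 2.26% of all 32851 promoters of the same length. The cell cycle homology region (CHR), TTTGAA on both strands, was in 7 of 9 promoters of the mitosis genes, against 17.9% of all promoters, and the E2F element was in 0 of those 9. The CHR was also in 2 of 6 promoters of the S, G2 and M group, 3 of 12 of the G1 group and 2 of 7 of the MCM group, and in 14 of the 48 (29.2%) in all. It was in 0 of the 9 promoters of the replication fork genes and the E2F element in 2. An E2F element was in 3 of 5 licensing, 4 of 7 MCM, 4 of 12 G1 and 2 of 6 S, G2 and M promoters, and the CHR in 0 of the 5 licensing promoters. CCAAT, on either strand, was in 35 of the 48 promoters and in 37.4% of all. The short motifs overlap one another in places, and a match describes letters, not a bound site. The windows below lie wholly before the start and show the E2F element, in capitals, in 7 genes of replication and its control.
Orc1, chr4:108579411-108579450, plus strand: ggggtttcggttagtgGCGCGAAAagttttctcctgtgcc
Cdc6, chr11:98907997-98908036, plus strand: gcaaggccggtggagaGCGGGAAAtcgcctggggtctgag
Mcm5, chr8:75109344-75109383, plus strand: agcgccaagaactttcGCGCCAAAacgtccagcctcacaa
Mcm6, chr1:128359729-128359768, minus strand: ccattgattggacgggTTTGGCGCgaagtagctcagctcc
Mcm7, chr5:138172025-138172064, minus strand: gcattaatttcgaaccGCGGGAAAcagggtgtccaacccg
Pola1, chrX:93632270-93632309, minus strand: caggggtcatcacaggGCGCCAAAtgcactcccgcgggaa
Cdk2, chr10:128705168-128705207, minus strand: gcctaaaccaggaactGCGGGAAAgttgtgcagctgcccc
The next windows show the CHR, in capitals, in genes of late S phase, G2 and mitosis.
Ccnb2, chr9:70421699-70421738, minus strand: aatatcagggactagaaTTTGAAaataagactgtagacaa
Cdk1, chr10:69352961-69353000, minus strand: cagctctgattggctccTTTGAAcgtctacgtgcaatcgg
Cdc20, chr4:118437344-118437383, minus strand: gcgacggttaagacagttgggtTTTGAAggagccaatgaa
Mki67, chr7:135716455-135716494, minus strand: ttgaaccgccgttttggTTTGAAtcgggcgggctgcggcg
Top2a, chr11:99024346-99024385, minus strand: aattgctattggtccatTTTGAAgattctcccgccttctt

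For each probe and array the authors deposited a log ratio between channels, without stating its base or which channel is the numerator. Over features, arrays of opposite orientation correlated below 0 by Pearson's r in 9 of 9 combinations (-0.61 to -0.038), and by rank in 6 of 9. The lowest r were those of lens487 with lens488 (-0.61) and lens493 with lens455 (-0.45). All others were weak, between -0.16 and -0.038. Arrays of the same orientation correlated above 0 (0.12 to 0.34). Ratios of arrays with elongating fibers in channel 1 were therefore turned in sign. The positive side below is that of Dnase2b, which encodes a lysosomal DNase of the fibers (1.81 ± 0.30, SD, n = 6), and the negative side that of Cdh2, which encodes N-cadherin (-1.78 ± 0.54). Which population is the higher one on the positive side is open: it is the mature fibers with channel 1 as numerator and the elongating fibers with channel 2. Log ratios carry no level, so how strongly any of these genes was expressed, or whether it stood above background, is unknown, and levels of 2 genes cannot be compared. In tissue cut from sections, fewer cells of a type and less RNA per cell cannot be told apart.

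Arrays with neighbouring title numbers, and lens493 with lens455, moved together. Across all features, deviations from the mean of their orientation correlated at 0.19 to 0.58 within the pairs lens249 with lens250, lens487 with lens488 and, left over, lens493 with lens455, and at -0.36 to -0.053 in the other 6 combinations. Deviations from a mean of 3 arrays sum to 0, which by itself pushes those 6 below 0 when the pairs lie above, so the 6 are no separate evidence. Among the 53 genes the within-pair values were 0.26 to 0.58. The 2 arrays of a pair differed by a median of 0.209 per gene, and arrays of different pairs and orientation by 0.265. If the arrays of a pair share RNA, there are 3 replicates rather than 6, so pair values are given beside the main genes below.

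As a group the cell cycle and replication genes lay close to 0. Their median log ratio was 0.012, against 0.0030 over all features, with 29 genes above 0 and 24 below (54.7% above, against 51.0% of all features). The median size, without sign, was 0.078 against 0.089, and the median SD over arrays 0.215 against 0.230. On single arrays the median of the 53 genes ran from -0.083 (lens250) to 0.043 (lens493). The span from the lowest to the highest mean was from Pola1 at -1.04 to Mcm3 at 0.39.

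**Figure D1:**
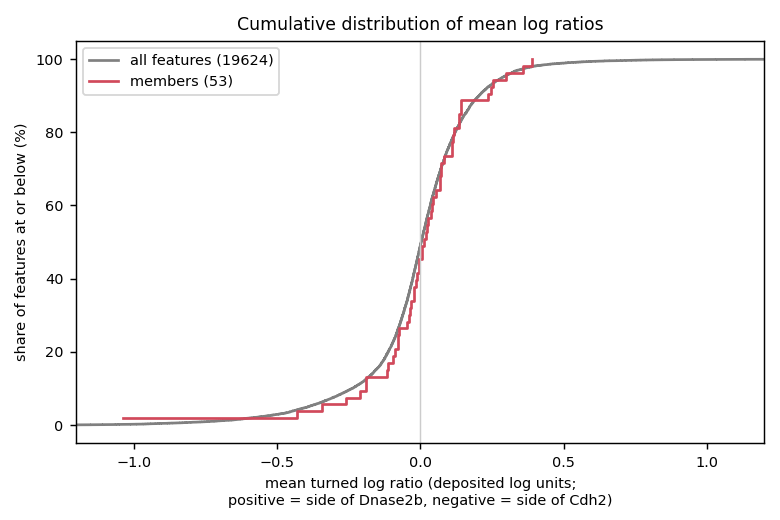
Cumulative share of features (%, vertical axis) against the mean turned log ratio over 6 arrays (deposited log units, horizontal axis), for 53 cell cycle and replication genes and for all 19624 features. The curves run close together around medians of 0.012 and 0.0030, and Pola1 at -1.04 is the lowest step of the gene group.

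By limma, adjusted by Benjamini-Hochberg over all features, 0 of the 53 genes passed an adjusted p of 0.05, where 1.73% of all features did. At an unadjusted p under 0.05 there were 7 genes, 4 positive (Mcm3, Rbl2, Cdk2, E2f3) and 3 negative (Pola1, Ccnd1, Ccnd2). This was 13.2% of the genes, against 16.2% of all features. The ratio had 1 sign on all 6 arrays for 3 genes (Mcm3 and Rbl2 positive, Pola1 negative), against 9.17% of all features. On 3 averaged pairs, 5 of the 53 had an unadjusted p under 0.05 (Mcm3, Pola1, Rbl2, Ccnd1, Cdk2), or 9.43%, against 12.2% of all features, and 0 passed in limma, as did 0 of all features.

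The data bound the mean deposited ratio of most of these genes. The 95% confidence interval of the mean lay wholly within 0.5 of 0 for 41 of the 53 genes, and within 1 for 52, with Pola1 the exception. Its half-width had a median of 0.201. Intervals were not counted this way over all features, so the bounds are not read as particular to these genes. A bound of 0.5 corresponds to 1.41-fold on a log2 scale and to 3.16-fold on a log10 scale. These intervals take the 6 arrays as separate. They bound deposited ratios, and signal over background is unknown, so a ratio near 0 need not mean equal expression.

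**Figure D2:**
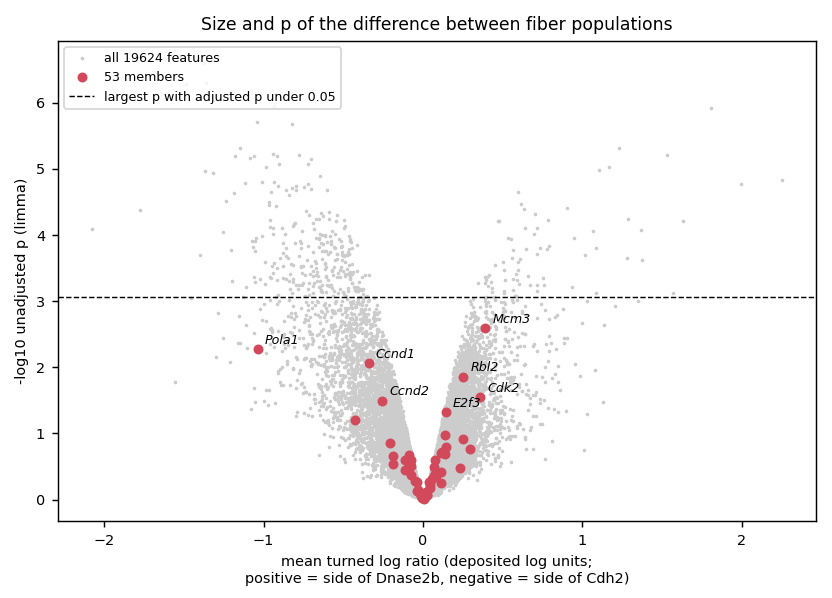
Size of the mean turned log ratio (deposited log units, horizontal axis) against -log10 of the unadjusted limma p (vertical axis), for all 19624 features (grey) and the 53 cell cycle and replication genes (red, with the 7 at an unadjusted p under 0.05 named). The dashed line marks the largest p that passed after adjustment, and 0 red points lie above it.

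Origin licensing genes had means between -0.19 and 0.12 and none passed in limma. Cdt1, which loads the MCM helicase, had -0.20 on lens249, 0.12 on lens250, 0.032 on lens487, 0.12 on lens488 and 0.32 on both lens493 and lens455, a mean of 0.12 ± 0.19 (adjusted p = 0.54). It was above 0 on 5 arrays. Gmnn, which encodes geminin, the inhibitor of Cdt1, had 0.37, 0.12, -0.26, 0.037, -0.67 and -0.75 in the same order of arrays, a mean of -0.19 ± 0.45 (adjusted p = 0.64). Its 2 lowest values were those of the pair lens493 and lens455. Orc1, a subunit of the origin recognition complex, lay between -0.22 and 0.085, below 0 on 5 arrays (-0.089 ± 0.11, adjusted p = 0.57).

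Orc2, another subunit of that complex, had a mean of 0.0068 that hid a split between pairs. It had 0.18 and 0.25 on lens249 and lens250, 0.30 and 0.61 on lens487 and lens488, and -0.66 and -0.64 on lens493 and lens455 (0.0068 ± 0.53, adjusted p = 0.99). The last pair stood on the other side from the first 4 arrays. Orc2, like Ccnd3 below, was singled out after its values were seen. Cdc6, the other loading factor, ranged from -0.44 to 0.73 and had 0.11 ± 0.51 (adjusted p = 0.83).

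The MCM helicase genes with Cdc45 had the highest median of the 6 role groups, 0.11, and on single arrays it ran from -0.017 to 0.31. Of these 7 genes 5 were above 0 (71.4%), against 51.0% of all features. At an unadjusted p under 0.05 there was 1, Mcm3 (14.3%, against 16.2% of all features). Mcm3, a subunit of the hexamer, had 0.11 on lens249, 0.51 on lens250, 0.37 on lens487, 0.70 on lens488, 0.42 on lens493 and 0.21 on lens455. All 6 values were positive, as were the 3 pair means. The mean was 0.39 ± 0.21 (SD, n = 6; 95% interval 0.19 to 0.59), 1.31-fold if log2 and 2.45-fold if log10, and it did not pass in limma (adjusted p = 0.081; on 3 averaged pairs adjusted p = 0.29). With arrays weighted by their quality in limma it passed, at 0.44 (adjusted p = 0.035); over the other 18 alternatives it did not (adjusted p up to 0.35).

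Mcm7 had 0.72 and 0.71 on lens487 and lens488 and between -0.15 and 0.13 on the other 4 arrays (0.25 ± 0.38, adjusted p = 0.45). Both high values thus belonged to 1 pair. Mcm5 was above 0 on 5 arrays, between -0.13 and 0.45 (0.14 ± 0.21, adjusted p = 0.51). The remaining subunits had 0.11 ± 0.23 (Mcm4), 0.026 ± 0.44 (Mcm2) and -0.021 ± 0.17 (Mcm6), and Cdc45, which joins MCM in the active helicase, had -0.032 ± 0.22. Although the 6 subunits form 1 complex, their means spanned from -0.021 to 0.39, and whether Mcm3 differs from the other subunits was not tested.

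Replication fork genes included the largest difference among the 53 genes. Pola1, the catalytic subunit of DNA polymerase alpha, which starts each new strand, had -0.16 on lens249, -0.34 on lens250, -1.46 on lens487, -1.09 on lens488, -2.33 on lens493 and -0.84 on lens455. All 6 values were below 0, and the pair lens249 and lens250 was nearest to it. The mean was -1.04 ± 0.79 (95% interval -1.65 to -0.42), larger in size than that of 99.7% of features, and 2.05-fold if log2 or 10.9-fold if log10. It did not pass in limma (adjusted p = 0.12; on 3 averaged pairs 0.34). Without lens249 it passed, at -1.33 (adjusted p = 0.046), and without lens493 it was -0.78 (adjusted p = 0.21); over 19 alternatives its adjusted p ran from 0.046 to 0.34.

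Prim1, the primase that works in 1 complex with Pola1, lay on the other side on 4 arrays. It had 0.19, 0.39, 0.74 and 1.07 on lens249, lens250, lens487 and lens488, and -0.48 and -0.12 on lens493 and lens455 (0.30 ± 0.56, adjusted p = 0.52). Rrm1, a subunit of ribonucleotide reductase, which makes deoxynucleotides, had -0.90 on lens250 and between -0.35 and 0.22 elsewhere (-0.19 ± 0.40, adjusted p = 0.58), and its partner Rrm2 had -0.036 ± 0.26. Pcna, the sliding clamp of the polymerases, had -0.096 ± 0.19 (adjusted p = 0.63). The clamp loader subunits Rfc3 and Rfc4 had 0.055 ± 0.20 and 0.044 ± 0.24, and the single-strand binding protein Rpa2 -0.11 ± 0.21. Tyms, thymidylate synthase, had 0.084 ± 0.29, and its 3 probes had -0.012, 0.056 and 0.21.

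**Figure D3:**
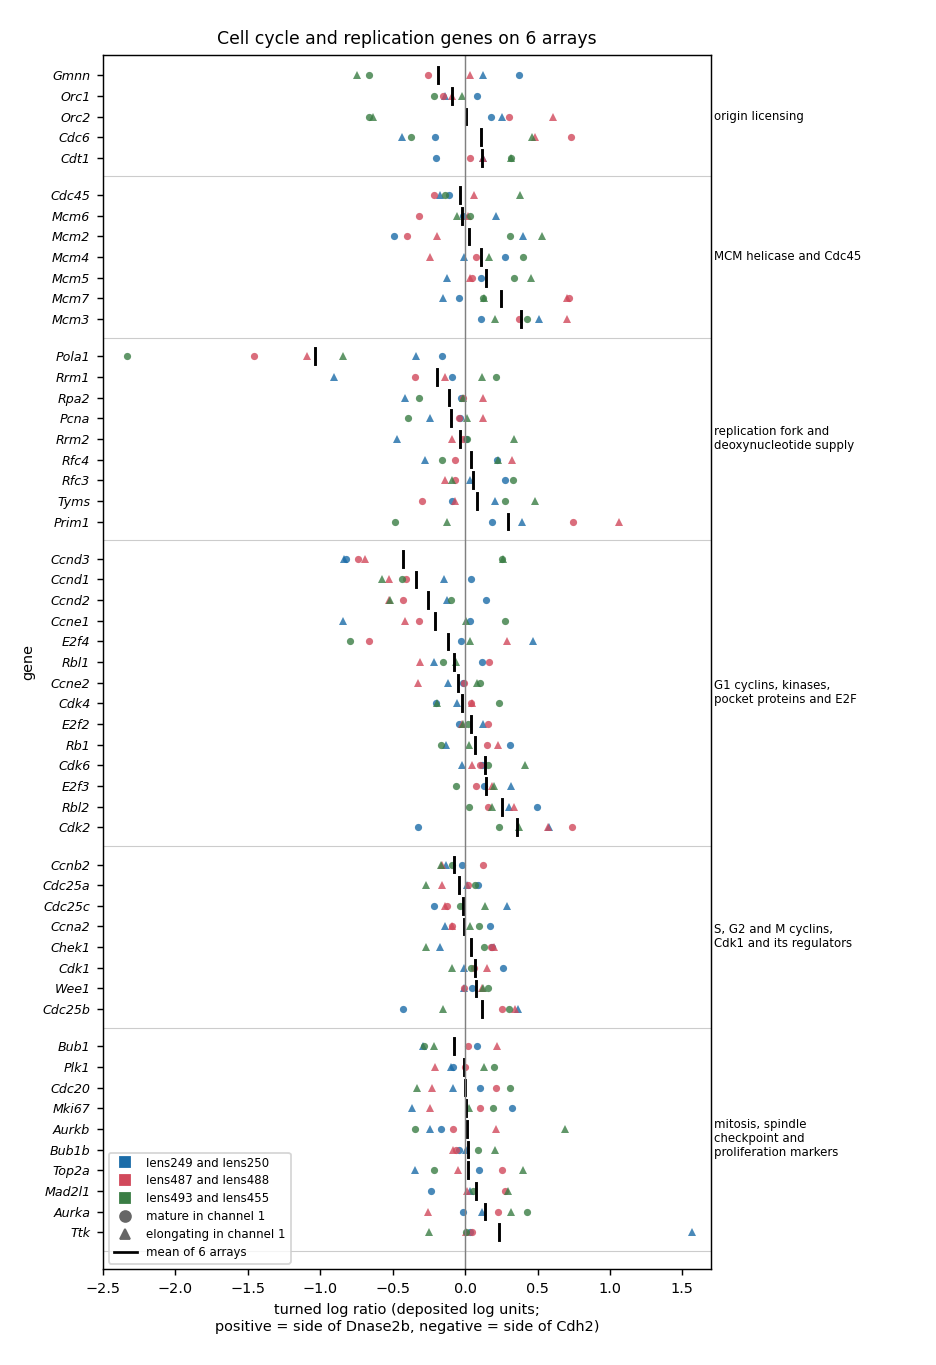
Turned log ratio (deposited log units, horizontal axis) of 53 cell cycle and replication genes (vertical axis, by role) on each of 6 arrays. Colours mark pairs of arrays (neighbouring titles, and lens493 with lens455 left over), shapes the orientation, and black bars the mean of 6 arrays. Pola1 lies below 0 on all arrays, Mcm3 and Rbl2 above, and most other genes on both sides of 0.

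In the G1 group the D cyclins all had negative means. Ccnd1, a partner of Cdk4 and Cdk6, had 0.040 on lens249, -0.15 on lens250, -0.41 on lens487, -0.52 on lens488, -0.44 on lens493 and -0.58 on lens455. It was below 0 on 5 arrays and near 0 on the first pair (-0.34 ± 0.24, 95% interval -0.56 to -0.12, adjusted p = 0.14; on 3 averaged pairs 0.38). Ccnd2 had 0.14 and -0.12 on the first pair, -0.43 and -0.53 on the second and -0.098 and -0.52 on the third (-0.26 ± 0.27, adjusted p = 0.25). Ccnd3 had -0.82 and -0.83 on lens249 and lens250, -0.74 and -0.69 on lens487 and lens488, and 0.25 and 0.26 on lens493 and lens455 (-0.43 ± 0.53, adjusted p = 0.34). Each pair gave nearly equal values, and the third pair lay on the opposite side from the other 4 arrays. None of the 3 passed in limma.

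Of the kinases of this phase, Cdk2 and Cdk6 had positive means and Cdk4 lay close to 0, with 3 arrays on either side. Cdk2, the partner of the E cyclins, had -0.32 on lens249 and 0.58, 0.74, 0.57, 0.23 and 0.37 on lens250, lens487, lens488, lens493 and lens455 (0.36 ± 0.38, adjusted p = 0.24). Only lens249 was below 0. Cdk6 had 0.14 ± 0.15 (adjusted p = 0.43; 0.097 and 0.18 by its 2 probes) and Cdk4 -0.020 ± 0.17 (adjusted p = 0.93). Ccne1 had -0.21 ± 0.40, with -0.84 on lens250 as its lowest value, and Ccne2 -0.048 ± 0.16.

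Among the pocket proteins, Rbl2 (p130), known for binding E2F in resting cells, was above 0 on all arrays, at 0.50, 0.30, 0.16, 0.34, 0.026 and 0.19 in the order lens249, lens250, lens487, lens488, lens493, lens455. Its mean was 0.25 ± 0.16 (95% interval 0.069 to 0.43, adjusted p = 0.18; on 3 averaged pairs 0.37). The lowest value stood close to 0. Rb1 had 0.069 ± 0.19 and Rbl1 (p107) -0.077 ± 0.19. Of the E2F factors, E2f3 had 0.14 ± 0.13 (adjusted p = 0.30), above 0 on 5 arrays, E2f2 0.038 ± 0.08 and E2f4, the main partner of Rbl2, -0.11 ± 0.51, with values from -0.79 to 0.47.

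**Figure D4:**
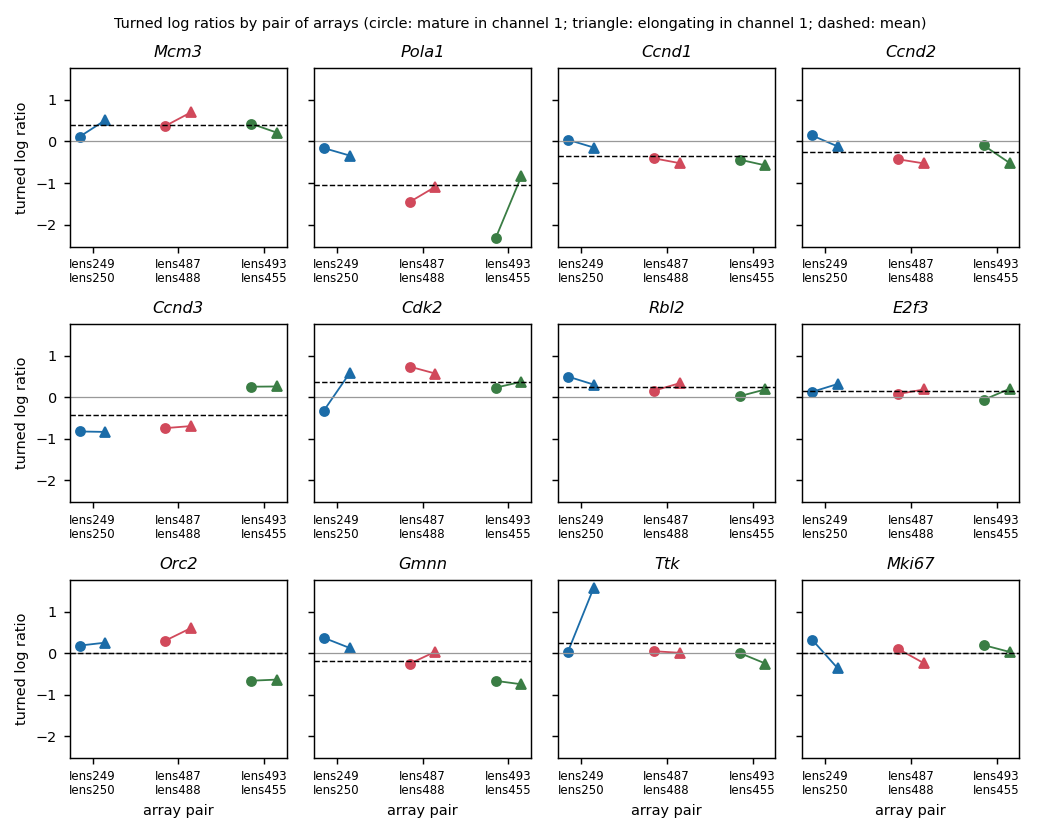
Turned log ratio (deposited log units, vertical axis) of 12 genes by pair of arrays (horizontal axis); circles are arrays with mature fibers in channel 1, triangles those with elongating fibers in channel 1, and dashed lines the mean of 6 arrays. Ccnd3 and Orc2 have close values within each pair and change side between pairs, Mcm3 stays above 0, and Ttk is high on lens250 alone.

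The genes of S phase, G2 and the entry into mitosis varied least, with a median SD of 0.134. Ccnb2, a B cyclin, was below 0 on 5 arrays, between -0.16 and 0.13 (-0.074 ± 0.11, adjusted p = 0.61). Cdk1, the mitotic kinase it activates, ran from -0.088 to 0.27 (0.070 ± 0.12, adjusted p = 0.66). Wee1, which inhibits Cdk1, ran from -0.0080 to 0.16 (0.072 ± 0.07, adjusted p = 0.61), the narrowest of these 3. Ccna2, of S phase and G2, had -0.0043 ± 0.12, and the checkpoint kinase Chek1 0.041 ± 0.21. The phosphatases that free Cdk1 had -0.041 ± 0.14 (Cdc25a), 0.11 ± 0.33 (Cdc25b) and -0.015 ± 0.19 (Cdc25c).

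The mitosis and proliferation genes had a median of 0.016 and a median size of 0.021, the smallest of the 6 role groups. Aurka, a kinase of the spindle poles, was above 0 on 4 arrays, from -0.26 to 0.43 (0.14 ± 0.25, adjusted p = 0.56). Mad2l1, of the spindle checkpoint, was above 0 on 5, from -0.23 to 0.30 (0.073 ± 0.20, adjusted p = 0.74). Ttk, the checkpoint kinase Mps1, had 1.57 on lens250, 0.032 on its partner lens249 and -0.25 to 0.046 on the other 4 (0.23 ± 0.66, adjusted p = 0.67), so its mean rested on 1 array. Mki67, the antigen Ki-67 used to mark dividing cells, had 0.0070 ± 0.26, Top2a, the topoisomerase that untangles sister chromatids, 0.022 ± 0.28, and Plk1, a mitotic kinase, -0.011 ± 0.15. Cdc20, which activates the anaphase-promoting complex, had -0.0032 ± 0.25, Aurkb 0.012 ± 0.38, and the checkpoint genes Bub1 and Bub1b -0.078 ± 0.21 and 0.020 ± 0.11.

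The dye was fitted as a term of its own. For 30 of the 53 genes the mean ratio had the same sign in both orientations. The same count was not made over all features, so it is not read as agreement between orientations. A dye effect passed in limma for 0 of the 53 genes, as for 0% of all features. At an unadjusted p under 0.05 there were 3 genes, against 12.6% of all features: E2f4 (-0.38), Cdc20 (0.21) and Mki67 (0.20), where positive means that the deposited ratio was shifted upward on arrays of either orientation. Mki67 had 0.32, 0.11 and 0.19 with mature fibers in channel 1 and -0.37, -0.24 and 0.029 with elongating fibers there. Its 3 values of one orientation all lay above its 3 of the other.

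**Figure D5:**
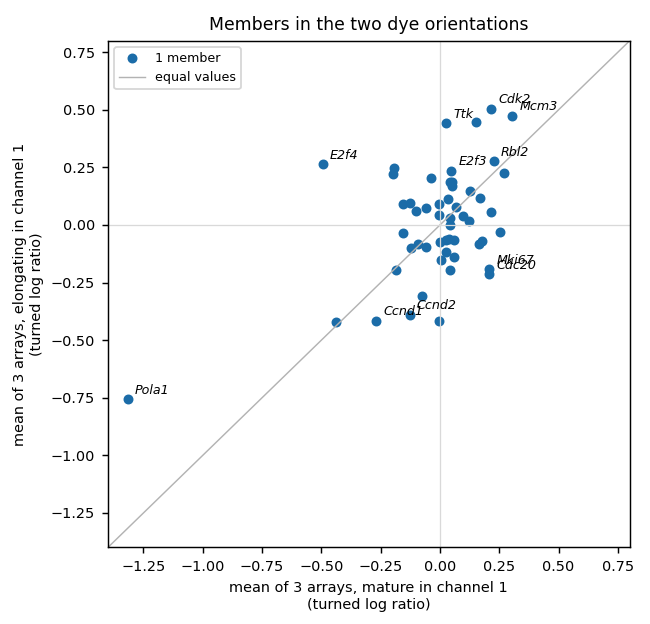
Mean turned log ratio of the 3 arrays with mature fibers in channel 1 (horizontal axis) and of the 3 with elongating fibers in channel 1 (vertical axis), in deposited log units, for 53 cell cycle and replication genes. Pola1 lies far below 0 on both axes, while E2f4, Mki67 and Cdc20 lie on opposite sides of 0 in the 2 orientations.

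Values were also set beside the promoter elements. The 15 measured genes with an E2F element had a median mean of 0.070, from Pola1 at -1.04 to Mcm3 at 0.39, and the 27 without had 0.0070. The 14 with a CHR had 0.024, between -0.074 and 0.25, and the 28 without had 0.024. The 31 with CCAAT had 0.0070 and the 11 without had 0.073. These are descriptions with no test, and all genes share the same 6 arrays.

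Other genes of the same pathways were taken from 3 lists (replication, E2F and G1, mitosis). Of 119 measured genes in all, 1 passed in limma, and their median was -0.034, against 0.0030 over all features. At an unadjusted p under 0.05, 19 were negative and 6 positive (21.0%, against 16.2% of all features). All features also leaned to the negative side at that threshold, with 1755 negative and 1428 positive. Of the features that passed, 266 were negative and 73 positive. The pathway gene that passed was Dut, the pyrophosphatase that removes dUTP and so keeps uracil out of new DNA. It had -0.49, -0.78, -0.63, -0.97, -1.60 and -1.27 in the order lens249, lens250, lens487, lens488, lens493, lens455 (-0.96 ± 0.42, adjusted p = 0.036). All 6 values were negative. On 3 averaged pairs Dut did not pass (adjusted p = 0.29), nor in 5 of the 6 fits without 1 array (adjusted p up to 0.14), and over all alternatives its adjusted p reached 0.31.

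Dut was the 1 gene past the threshold among 40 other replication genes, where 1.73% of all features passed. At an unadjusted p under 0.05 there were 9 of these genes (22.5%), against 16.2% of all features. The same share was 12.5% for the E2F and G1 list, 23.6% for mitosis and 28.6% for the Cdk inhibitors. Of 24 other E2F and G1 genes 0 passed, with 3 at an unadjusted p under 0.05; the lowest p were those of Mnat1, an assembly factor of the Cdk-activating kinase (-0.44 ± 0.29, adjusted p = 0.055), and the Mediator kinase Cdk8 (-0.47 ± 0.30, adjusted p = 0.10). Both were below 0 on all arrays, and Mnat1 passed under 3 alternatives (adjusted p = 0.043 with arrays scaled to one spread, 0.034 with quantile normalization and 0.027 with array weights, in a range of 0.027 to 0.45 over the 19 alternatives). Of 55 other mitosis genes 0 passed, with 13 at an unadjusted p under 0.05, led by the cohesin subunit Rad21 (-0.28 ± 0.07, adjusted p = 0.070, and 0.041 with array weights in a range of 0.041 to 0.36) and Anapc5, of the anaphase-promoting complex (-0.36 ± 0.24, adjusted p = 0.076). Of 7 Cdk inhibitors 0 passed, with 2 at an unadjusted p under 0.05: Cdkn1c (p57), which acts in the exit of lens cells from the cycle, had -0.61 ± 0.32 (adjusted p = 0.060; 0.038 with no dye term and 0.030 with array weights, in a range of 0.030 to 0.31), below 0 on 6 arrays, and Cdkn2d 0.36 ± 0.41 (adjusted p = 0.24). Cdkn1b (p27) had -0.027 ± 0.26.

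Dividing cells in the lens belong to the epithelium, so its markers are set beside these values. Over all features 1.73% passed in limma and 16.2% had an unadjusted p under 0.05. The unadjusted share was 25.0% for epithelium, 33.3% for retina and pigment cells, 28.6% for macrophages and leukocytes and 15.4% for fibers. Of 12 measured markers of lens epithelium 1 passed in limma, the collagen Col4a1 on the negative side (-0.95 ± 0.38, adjusted p = 0.030), and 3 had an unadjusted p under 0.05, with Col4a2 (-0.58 ± 0.51, adjusted p = 0.19) and Lama1 (0.23 ± 0.20, adjusted p = 0.26). Foxe3 and Cdh1, defining genes of that layer, had 0.11 ± 0.11 and -0.025 ± 0.26, and the list's median was 0.0049. Of 8 blood and vessel markers 0 passed (0 at an unadjusted p under 0.05; median 0.036), of 9 retina and pigment cell markers 0 (3 unadjusted; median 0.147), and of 7 macrophage and leukocyte markers 1, Laptm5 (0.35 ± 0.21, adjusted p = 0.039; 2 unadjusted; median 0.134). Of 13 fiber markers 1 passed, Dnase2b, which names the positive side above, so its side is no separate result. Mip and Lim2, membrane proteins of fibers, had 0.029 ± 0.29 and 0.20 ± 0.22. Of the others the filament gene Bfsp2 had 0.53 ± 0.46 (adjusted p = 0.18), and the crystallins Crygs, Cryba1 and Crybb3 lay on the negative side at -0.34 ± 0.47, -0.30 ± 0.81 and -0.17 ± 0.66; the fiber list's median was 0.048, with 2 at an unadjusted p under 0.05. The part of other cells in the values of the cell cycle genes was not tested.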

How the data were processed

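Total RNA of laser-captured mature and elongating lens fibers was measured on 6 two-colour arrays. The authors deposited 1 log ratio per probe and array for 22575 probes (0 missing), of unknown base and numerator; for scanner, dyes, background correction and normalization, the labels give nothing. The plan had assumed log2, but ratios stay here in deposited units, which leaves p-values the same. Without intensities, the number of arrays limits the precision. Symbols came from the platform annotation (18218 probes with 1 symbol, 16 with several, 4341 unlisted), and the 53 measured members matched RefSeq (GRCm38.p6) by gene ID. Probable control spots (1032 unlisted probes in 10 sets of identical values, each of 20 or more) were left out, identical rows counted once, arrays centred on their medians (deposited medians -0.006 to 0.025), ratios turned and probes of a gene averaged, leaving 19624 features. Limma 3.58.1 (R 4.3.3) was fitted with terms for fiber population and dye, two-sided, with Benjamini-Hochberg adjustment at 0.05. It was also run on simulated arrays drawn independently, which cannot test the fit where arrays of a pair move together. The SD over turned arrays contains each gene's dye effect, which the fit removes. Members and lists were chosen with earlier results of these data known. Values on every array were given for the 3 lowest p of each role and for members of 1 sign, some as ranges. Outside that rule, values on every array were also given for Ccnd2, Ccnd3, Orc2 and Mki67. Of each other pathway or inhibitor list the genes past the threshold or the 2 lowest p were named. Cdkn1b and the cell type markers were named outside that rule. Other members were given by mean, some with a range or lowest value. Figures used matplotlib 3.10.9.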

Additional observations from a re-analysis of the deposited data

Results flagged for a closer look

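Ttk had 1.57 (1.568) on lens250, far from the other 5 arrays at -0.25 to 0.046. Of 60 genes examined this way 1 stood out, where chance alone gives about 1 in 20, or 3. The partner array lens249 had 0.032 for Ttk, and the cause was not tested.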

How the results depend on the processing

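Over 19 alternatives, the 53 genes gave 1007 comparisons with the values above. In 936 direction and side of the threshold stayed, in 69 the sign of a ratio that passed in neither changed, in 2 a gene newly passed (Mcm3 with array weights, Pola1 without lens249), and in 0 a gene that passed reversed. The number passing was 1 with array weights, 0 to 1 without 1 array, and 0 otherwise. The number at an unadjusted p under 0.05, 7 above, was 11 with array weights (20.8% of the genes, against 20.6% of all features), 3 on the arrays with mature fibers in channel 1 alone (5.66%, against 13.3%), and 4 to 7 without 1 array, with 4 (7.55%) without lens487 or lens488 (11.4% and 13.0% of all features). Of the 119 pathway genes, 1 above, 7 passed with array weights, 3 with no dye term, 2 after scaling to one spread or quantile normalization, 0 with every row kept, on 3 averaged pairs or in either orientation alone, and 0 to 1 without 1 array. Array weights also raised the features passing from 339 to 656, and 3 averaged pairs lowered them to 0 (2395 at an unadjusted p under 0.05); the cause was not tested. Pairs as a random block, an alternative added after seeing the data, gave 0 genes (6 unadjusted; correlation 0.13). The labels carry no replicate numbers, so both pair analyses rest on title numbers. The pair lens493 with lens455 rests only on being left over. Spot intensities were not used, so signal over background is unknown.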

Other observations

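Among the other genes of these pathways, 1 with a large ratio that did not pass is named here after its values were seen. Timeless, which stabilises the replication fork and is known also from the circadian clock in flies, had 2.08 and 2.12 on lens249 and lens250, 1.16 and 1.62 on lens487 and lens488, and 0.36 and 0.75 on lens493 and lens455, a mean of 1.35 ± 0.71 (limma adjusted p = 0.054). All 6 values were positive and the pairs kept apart from each other.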
